A study of Rattus norvegicus with 5 samples.

Results

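The baseline transcriptome of untransduced BRL-3A cells was read from 1 one-colour array of the normal control. BRL-3A is an established line grown from the liver of a Buffalo rat. Named genes were taken as expressed when the scanner software called a probe of theirs well above background, and they were ordered by level. A level is the log2 of the processed signal minus the array's 75th percentile of that value, so that 0 marks a probe at a signal of 1341. Of 15160 genes with a name on the array, 13456 were well above background, which is 88.8% of them. Of all 30336 probes kept, 26260 were well above background.

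The series holds 5 arrays of BRL-3A cells, 1 per group, and concerns Tmub1, a membrane protein with a ubiquitin-like domain. The other 4 groups received a lentivirus to overexpress Tmub1, one to knock it down, or the negative control of either, and all 5 groups were the same line. The normal cells carried no virus and were grown in Dulbecco's modified Eagle's medium with fetal bovine serum, penicillin and streptomycin. RNA was harvested 48 h after transduction in the study's scheme. The labels call the line normal rat hepatocytes and name neither its passage nor a clone. With 1 array there was no biological replicate, so every value below describes this culture and none was tested.

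The normal array was scanned on another day than the other 4, and on some marker lists it stood apart from them. The median percentile of 23 skeletal muscle genes was 37.4 on it and 70.5 to 76.2 on the 4 transduced arrays. That of 13 adipocyte genes was 25.3 against 48.0 to 61.4, and that of 18 macrophage and leukocyte markers was 39.9 against 50.6 to 59.9. For 28 hepatocyte plasma proteins the median percentile of 21.2 lay just under the 22.0 to 26.9 of the other arrays, while 21 of them were called well above background against 14 to 19. Mesothelial markers went the other way, with a median percentile of 94.9 against 81.3 to 90.6. Red blood cell genes at 27.2 lay within the 24.0 to 30.4 of the other arrays. The markers named for the line, at 59.3, lay within 57.0 to 70.0. Scan day and group cannot be told apart, and no further value from the other arrays was used.

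As background, BRL-3A cells are known for the insulin-like growth factor system. Their conditioned medium was a classical source of multiplication-stimulating activity, later identified as rat IGF-II, and of IGFBP-2, a protein that binds IGFs outside the cell. Adult hepatocytes are known for albumin and other plasma proteins, for urea cycle and cytochrome P450 enzymes, and for the keratins 8 and 18 as their only keratins. Mesenchymal cells and mesothelium, the lining of the body cavities, carry vimentin and lay down collagen-rich matrix.

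Probes differ in how strongly they bind their target, so a rank here is a rank of signal and no ratio between genes is given. The percentile of a gene is the share of the other genes, among the 15160 named, that lay below its level. The median named gene lay at -2.13, and levels ran from -9.01 to 7.64. The top 20% of genes began at 1.14 and the lowest 20% ended at -5.18. A 2-fold change in signal is 1 unit of level. The replicate spots of a probe had a median SD of 0.08 (1390 probes with up to 10 spots each), and the scanner software's own error was a median of 0.14 for probes well above background. Different probes of a gene were much farther apart, by a median of 2.74 over the 2597 genes with more than 1 probe. The brightest probe was taken for each gene, and genes with several probes had a median percentile of 67.8 against 46.1 for the 12563 genes with 1 probe.

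Of the 6 genes named as markers of the line, 4 were well above background. Igf2, the fetal growth factor IGF-II, had a level of 7.62 and the second highest signal of all named genes. Igfbp2 had a level of 7.05 on its brightest probe and 6.04 on the other, at rank 16. Vim, the intermediate filament of mesenchymal cells, was at 2.90 ± 0.07 (SD over 10 spots of the same probe), at the 92.0 percentile. Krt8 was at -4.42 ± 0.08 (SD over 7 spots), at the 26.7 percentile. Alb, albumin, was not well above background at a signal of 12.9, and neither was Krt18, the partner of Krt8, at a signal of 3.12. Both growth factor system genes therefore lay among the brightest genes and Vim within the top 20%, while Krt18 and Alb lay in the lowest 20%. Alb, Krt18 and Igf2 each rest on 1 probe with 1 spot. The defining hepatocyte marker thus did not pass the well above background call. It did pass the looser call of a positive and significant signal, which 5 of the 6 markers passed. Alb at -6.70 lay at the edge of the call. Among genes read on 1 spot, Stoml3 was called at -6.68, just over Alb, and Lama1 was not called at -6.24. Ubd was called at -6.73, but over 10 spots. A call on 1 spot there cannot decide whether the label of hepatocytes holds.

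**Figure D1:**
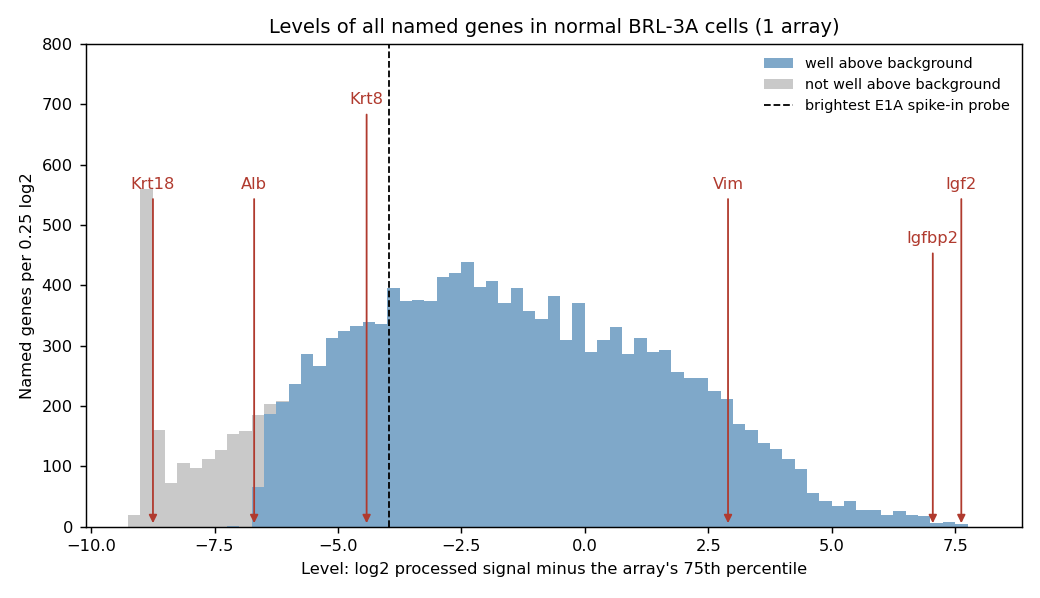
Number of named genes (y axis) by level (x axis, log2 of processed signal minus the array's 75th percentile, bins of 0.25) on the normal array, with genes not well above background in grey and an arrow at each of the 6 markers. Igf2 at 7.62 and Igfbp2 at 7.05 sit at the bright end, Vim at 2.90 lies right of the median of -2.13, and Alb at -6.70 and Krt18 at -8.75 lie in the grey part. The dashed line is the brightest E1A spike-in control probe, at -3.96.

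The background call was permissive, and levels near it overlapped. Agmat, at -7.24, was the dimmest gene called well above background, followed by Ubd at -6.73 and Stoml3 at -6.68. Lama1, at -6.24, was the brightest gene not called, followed by Nectin4 at -6.25 and Or6p1 at -6.28. Agmat and Ubd were read over 10 spots each, and Stoml3 and the uncalled genes named here on 1 spot each. Of 153 negative control spots, 1 was called, which is 0.65%. However, 6 of the 10 E1A spike-in control probes, made against a viral sequence, were also called, with levels up to -3.96. Of the 12 ERCC spike-in probes 10 were called, with levels up to 0.74. Whether spike-in RNA was added was not given. Of the 15160 named genes, 10514 lay over the brightest E1A probe, which is 69.4%. That line is used below as a second, stricter count, and was chosen after the data were seen. It is not the top of control signal. Besides the ERCC probes, the array's DCP control probes reached -3.73 and its ETG control probes -2.73. A list's count well above background is to be read against the 88.8% of all genes, and a share near it says nothing particular about the list.

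With placeholder symbols such as LOC left out, 54 of the 100 named genes with the highest levels encode ribosomal proteins. Of the top 30, 17 do. The other 13 were led by Ccdc80, a secreted matrix protein, at 7.64 ± 0.14 (SD over 9 spots). Igf2 at 7.62 differed from it by less than the scanner software's error. That error had the same value of 0.14 for each of the 30 genes, so it was not a spread measured on their spots. Next came Actg1 (cytoplasmic actin) at 7.47, Col3a1 (the fibrillar collagen III chain) at 7.39, Eln (elastin) at 7.38 and Bgn (the proteoglycan biglycan) at 7.22. Igfbp2 at 7.05 was followed by Ceacam9, a member of the carcinoembryonic antigen family, at 7.02 on 1 probe. The remaining members were Tmsb4x (thymosin beta 4, which binds actin monomers) at 6.99, Ppia (cyclophilin A) at 6.98, Myl6 (a non-muscle myosin light chain) at 6.97, Anxa2 at 6.89 and Tpt1 at 6.86. So secreted products, namely Ccdc80, Igf2, Col3a1, Eln, Bgn and Igfbp2, made up 6 of these 13. Eln had a second probe at -0.96 and Bgn one at 2.24, so their place rests on 1 of 2 probes. With placeholder symbols kept in, the 100 brightest named genes carried 24.7% of the signal summed over named genes and the 1000 brightest 67.7%. Igf2 alone carried 0.47% and the 66 ribosomal protein genes 13.2%.

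Promoter sequence differed along the ranking, and 4 promoters are shown, those of the bright genes Igf2, Bnc1 and Acta2 and of the dim Alb. None is from the middle of the ranking. RefSeq's table of rat promoters (assembly GRCr8, 1 start per gene, 250 bases before to 50 after it) matched 12392 of the 15160 genes by gene ID. Whether the cells use that start was not tested. The 250 bases before the start are printed 5′ to 3′ on the gene's strand, with each CG in capitals.
Igf2, level 7.62, chr1:207253981-207254230, minus strand: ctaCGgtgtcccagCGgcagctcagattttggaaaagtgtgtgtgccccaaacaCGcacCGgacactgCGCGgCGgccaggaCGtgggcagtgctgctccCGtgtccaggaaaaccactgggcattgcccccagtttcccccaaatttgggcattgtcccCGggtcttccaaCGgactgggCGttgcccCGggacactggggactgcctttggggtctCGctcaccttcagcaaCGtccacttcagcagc
Bnc1, level 4.03, chr1:145352535-145352784, minus strand: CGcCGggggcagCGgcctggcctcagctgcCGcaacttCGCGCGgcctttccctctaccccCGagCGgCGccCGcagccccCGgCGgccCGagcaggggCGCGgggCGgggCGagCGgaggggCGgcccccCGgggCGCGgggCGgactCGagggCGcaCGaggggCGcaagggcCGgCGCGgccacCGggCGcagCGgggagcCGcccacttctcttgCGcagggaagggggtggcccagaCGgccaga
Acta2, level 3.55, chr1:241172504-241172753, minus strand: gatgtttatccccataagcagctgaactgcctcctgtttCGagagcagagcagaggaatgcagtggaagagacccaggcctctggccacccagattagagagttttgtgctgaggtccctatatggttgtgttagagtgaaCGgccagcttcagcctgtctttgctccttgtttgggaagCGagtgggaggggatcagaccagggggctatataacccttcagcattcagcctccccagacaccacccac
Alb, level -6.70, chr14:17906980-17907229, minus strand: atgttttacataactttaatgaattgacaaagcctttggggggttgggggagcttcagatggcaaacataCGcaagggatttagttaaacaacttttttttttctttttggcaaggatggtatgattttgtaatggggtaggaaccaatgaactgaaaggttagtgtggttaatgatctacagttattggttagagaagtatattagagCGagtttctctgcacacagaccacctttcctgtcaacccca
The printed stretch holds 15 CG for Igf2, 37 for Bnc1, 3 for Acta2 and 2 for Alb. Acta2, smooth muscle actin, is thus a bright gene whose promoter is as poor in CG as that of the dim Alb.

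Over the 300 bases, the observed count of CG over that expected from the C and G content had a median of 0.30 in the dimmest 20% of genes. It was 0.45, 0.66, 0.77 and 0.80 in the next 4 classes of equal size. The share of promoters over 0.6, a common mark of CpG islands, went from 25.3% in the dimmest class to 79.7% in the brightest. Among genes not well above background 21.3% were over 0.6 (1390 genes), against 58.2% of those well above it. The rank correlation between level and this ratio was 0.43 across genes, which share 1 array and are not replicates. The median GC content also differed, at 50.3% in the dimmest class and 61.3% in the brightest; gene length had a rank correlation of 0.07 with level. Whether the base composition of the probes plays a part was not tested. The word TATAAA on the sense strand, lying within the window from 50 to 11 bases before the start, was found in 3.63%, 4.20%, 2.10%, 1.61% and 2.30% of promoters from the dimmest to the brightest class, and in 2.21% of all promoters in the table. By list, 52 of 53 ribosomal protein promoters were over 0.6, as were 4 of 5 mesothelial and 11 of 15 of the IGF system. For hepatocyte plasma proteins it was 1 of 21, and for macrophage and leukocyte markers 0 of 14. Other lists went against the trend with level: among dim lists, 10 of 11 Hox and 13 of 15 Wnt promoters were over 0.6, and among bright ones only 7 of 19 mesenchymal and 11 of 29 matrix glycoprotein promoters were.

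**Figure D2:**
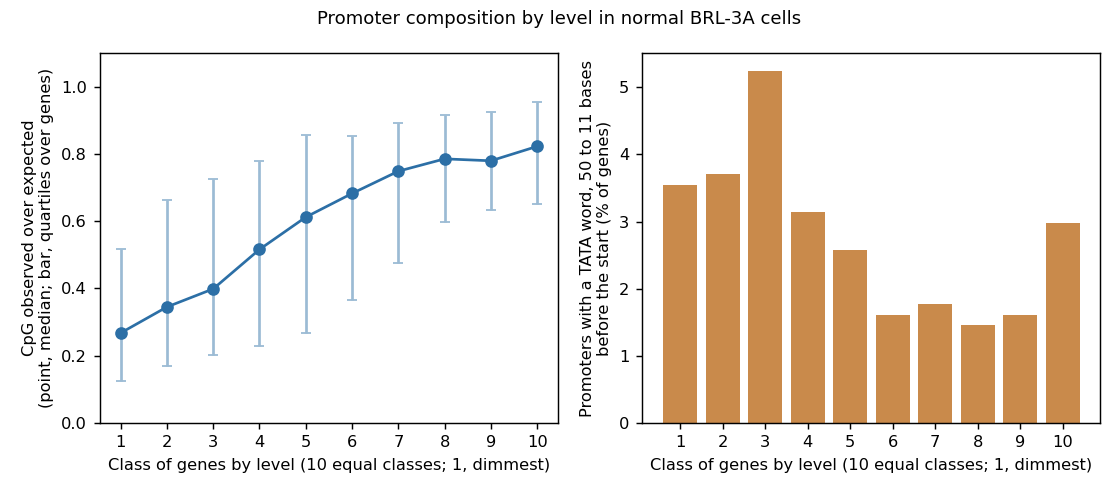
Left, CpG observed over expected (y axis, point for the median and bar for the quartiles over genes) in 10 equal classes of genes by level (x axis, class 1 dimmest); right, percent of promoters with the TATA word in the window (y axis, from 0) in the same classes. The median ratio goes from 0.27 in the dimmest class to 0.82 in the brightest, with quartiles that overlap between neighbours, and the TATAAA share lies between 1.45% and 5.25%.

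Hepatocyte genes were mostly dim. Of 28 plasma proteins measured, 21 were well above background (88.8% of all genes were), but only 8 lay over the brightest E1A probe (69.4%). Of the 28, 13 were in the lowest 20% of genes. The list's median level was -5.04, at the 21.2 percentile. The highest were Plg (plasminogen) at 1.57, Ahsg (fetuin A) at 0.96, Serpina1 (alpha-1 antitrypsin) at -0.82, Hpx (hemopexin) at -1.68, Serpinc1 (antithrombin) at -3.52 and Tf (transferrin) at -3.76. Plg was thus the single member in the top 20%. Not well above background were Alb, Ambp, Rbp4 (retinol carrier), F2 (prothrombin), F9 and Itih1, and a seventh, Kng1, was also not called. Afp, the fetal counterpart of albumin, was at -3.86, Ttr (transthyretin) at -5.70 and Apoa1, the main protein of high-density lipoprotein, at -6.28. The 28 genes together carried 0.016% of the summed signal.

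Hepatocyte transcription factors had a median level of -4.05. Of 19 measured, 17 were well above background, a share near the 88.8% of all genes. Over the brightest E1A probe lay 9 of the 19 (69.4% of all genes did). Cebpb, a factor of the acute phase found in many cell types, was the exception at 4.04. Foxa2 was at -0.66 and Nr1h4, the bile acid receptor, at -1.63 with its other probe at -6.60. Hnf4a, the central regulator of hepatocyte identity, was at -3.23, the 38.2 percentile. Nr0b2 and Prox1 were not well above background. So the factor genes gave signals mostly below the median gene.

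Of 29 hepatocyte enzymes and transporters, 20 were well above background (88.8% of all genes were) and 14 lay over the brightest E1A probe (69.4%). Of the 29, 0 were in the top 20%. The highest were Fah (tyrosine breakdown) at 0.74, Arg1 (arginase, the last step of the urea cycle) at 0.67, Bhmt at -0.06, Asl at -0.08, Cyp8b1 at -1.50 and Cyp2e1 at -1.53. Cps1 and Otc, which carry out the first steps of the urea cycle in mitochondria, were not well above background. Nor were Ass1, Cyp7a1 (the rate-limiting enzyme of bile acid synthesis), Tat and Pck1 (gluconeogenesis). Abcb11 and Uox were also among the members not called. The urea cycle genes were thus read far apart, with Arg1 and Asl near 0 and Cps1 at -7.13 and Otc at -7.32. By the scanner software's looser call of a positive and significant signal, 27 of the 29 were called.

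Cholangiocyte and progenitor markers had a median level of -4.15, with 12 of 14 well above background, 7 over the brightest E1A probe and 2 in the top 20%. The first share is near the 88.8% of all genes, and the second is to be read against 69.4% of all genes. The 2 in the top 20% were Slc4a2, an anion exchanger, at 3.29 with another probe at 0.97, and Gpc3, a fetal liver proteoglycan, at 2.62. Krt19, a keratin of bile ducts, was at -1.69, Dlk1, a marker of hepatoblasts, at the 51.3 percentile, Krt7 at -3.88 and Epcam at -5.83. Cftr was among the members not well above background.

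Epithelial genes were read over a wide range. Of 30 measured, 26 were well above background (88.8% of all genes were) and 19 lay over the brightest E1A probe (69.4%). In the top 20% were 6, and 8 were in the lowest 20%. Tjp1 (the tight junction scaffold ZO-1) was at 4.89 with another probe at 1.03, Cdh3 (P-cadherin) at 3.87, Ocln (occludin) at 2.55 and Jup (plakoglobin) at 2.33. Spint2 at 1.36 and Pkp2 at 1.20 completed the 6. Cdh1, E-cadherin, which defines most epithelia, was not well above background at -8.74, and the same held for Cldn3, Crb3 and Krt18. Cldn1 was at -5.49 and Cldn4 at -5.67. The list's median of -3.64 lay below that of all genes.

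Mesenchymal genes had a median level of 0.96, at the 78.5 percentile, and 13 of 27 were in the top 20%. The highest were Anxa2 (a membrane-binding annexin) at 6.89, Fn1 (fibronectin) at 6.51, Lgals1 (galectin 1) at 5.82, Sparc (a collagen-binding matrix protein) at 5.69, S100a6 at 5.53 and S100a4 at 4.50. The calcium-binding S100 proteins and Anxa2 are found in many cultured cells. The transcription factors Snai1 at 2.35 and Twist1 at 1.49 were also in the top 20%, whereas Zeb2 was at -6.47. Thy1, a fibroblast surface marker, was at -5.68, and Pdgfra, Fap, Tcf21 and Meox2, which mark tissue fibroblasts, were not well above background. Pdgfrb was at -0.81. Over the 21 members with 1 probe, ranked among genes with 1 probe, the median percentile was 53.9. Fn1 had a second probe at -2.46.

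Mesothelial markers had a median of 3.56, at the 94.9 percentile, with 7 of 10 matched. This median is the brightest probe of Wt1. With the median of each gene's probes in place of the brightest it was 0.23, at the 76.2 percentile, under the 79.7 of contractile genes. Msln (mesothelin, a surface protein of mesothelium) was at 5.23, Podxl (podocalyxin) at 4.08, Bnc1 (basonuclin 1, a transcription factor) at 4.03 and Wt1 (the Wilms tumour factor) at 3.56. The 3 probes of Wt1 read 3.56, 0.23 and -0.36, all well above background. Calb2 (calretinin) was at -5.98, Cd200 at -2.91, and Gpm6a was not well above background. Thus 4 of 7 were in the top 20% and 2 in the lowest 20%. Podxl and Wt1 are also genes of kidney podocytes.

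Contractile genes had a median level of 0.70, with 8 of 18 in the top 20%, 18 well above background (88.8% of all genes were) and 15 over the brightest E1A probe (69.4% of all genes were). Tpm1 (tropomyosin 1) was at 5.11, Smtn (smoothelin) at 4.16, Flna (filamin A) at 3.86, Acta2 at 3.55, Myh10 (non-muscle myosin) at 3.30 and Srf, the factor that drives actin genes, at 2.59. Markers of mature smooth muscle were read far apart, with Smtn among the highest on 1 of its 2 probes (the other at -0.64), Myh11 at -4.96 and Cnn1 (calponin) at -5.44.

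Stellate cell and pericyte markers had a median level of -4.35, with 1 of 18 in the top 20%, Bambi (a decoy receptor of the TGF-beta family) at 2.42. Ecm1 was at 1.05, Hand2 at 0.38, Des (desmin) at 0.34 and Lhx2 at -0.19. Lrat, the enzyme that stores vitamin A in stellate cells, was at -5.08, and Gfap, Cspg4 and Colec10 were not well above background. The list's median lay below that of all genes.

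Genes of other cell types were mostly dim, with exceptions named here. Endothelial markers had a median of -3.90, with Kdr (the main VEGF receptor) at 1.64 and Pecam1, Emcn, Sox17 and Esam not well above background. The median over macrophage and leukocyte markers was -3.09, with 0 of 18 in the top 20%. Tyrobp was highest at 1.14004, just under the 1.1401 at which the top 20% began. That count was 1 with the median of each gene's probes or with outlier spots kept, and stayed 0 with the authors' values. Ptprc, the common leukocyte antigen, was at -3.77, and Itgam, Cd3e and Lyz2 were not called. Skeletal muscle genes had a median of -3.29, with Pygm (muscle glycogen phosphorylase) at 3.89 and Eno3 at 3.28, whereas Ckm (muscle creatine kinase) was at -5.91, Acta1 at -6.24, and Myh2, Myh4, Myf6 and Cav3 were not called. Adipocyte genes had a median of -4.57, with Adipoq at -4.26 and Fabp4, Lpl, Cfd and Retn not called. Among red blood cell genes the median was -4.36; Hba-a1 (alpha globin) read 4.90 on one probe and -6.80, not well above background, on the other, and Hbb was at -6.10. Neuronal genes had a median of -4.23, led by Nefm (a neurofilament) at 1.76, and pluripotency genes one of -3.17, led by Pou5f1 at 0.71 with Sox2 at -4.88 and Nanog at -4.10. On this array fewer cells of a type, less RNA per cell and probe signal unrelated to the target cannot be told apart.

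**Figure D3:**
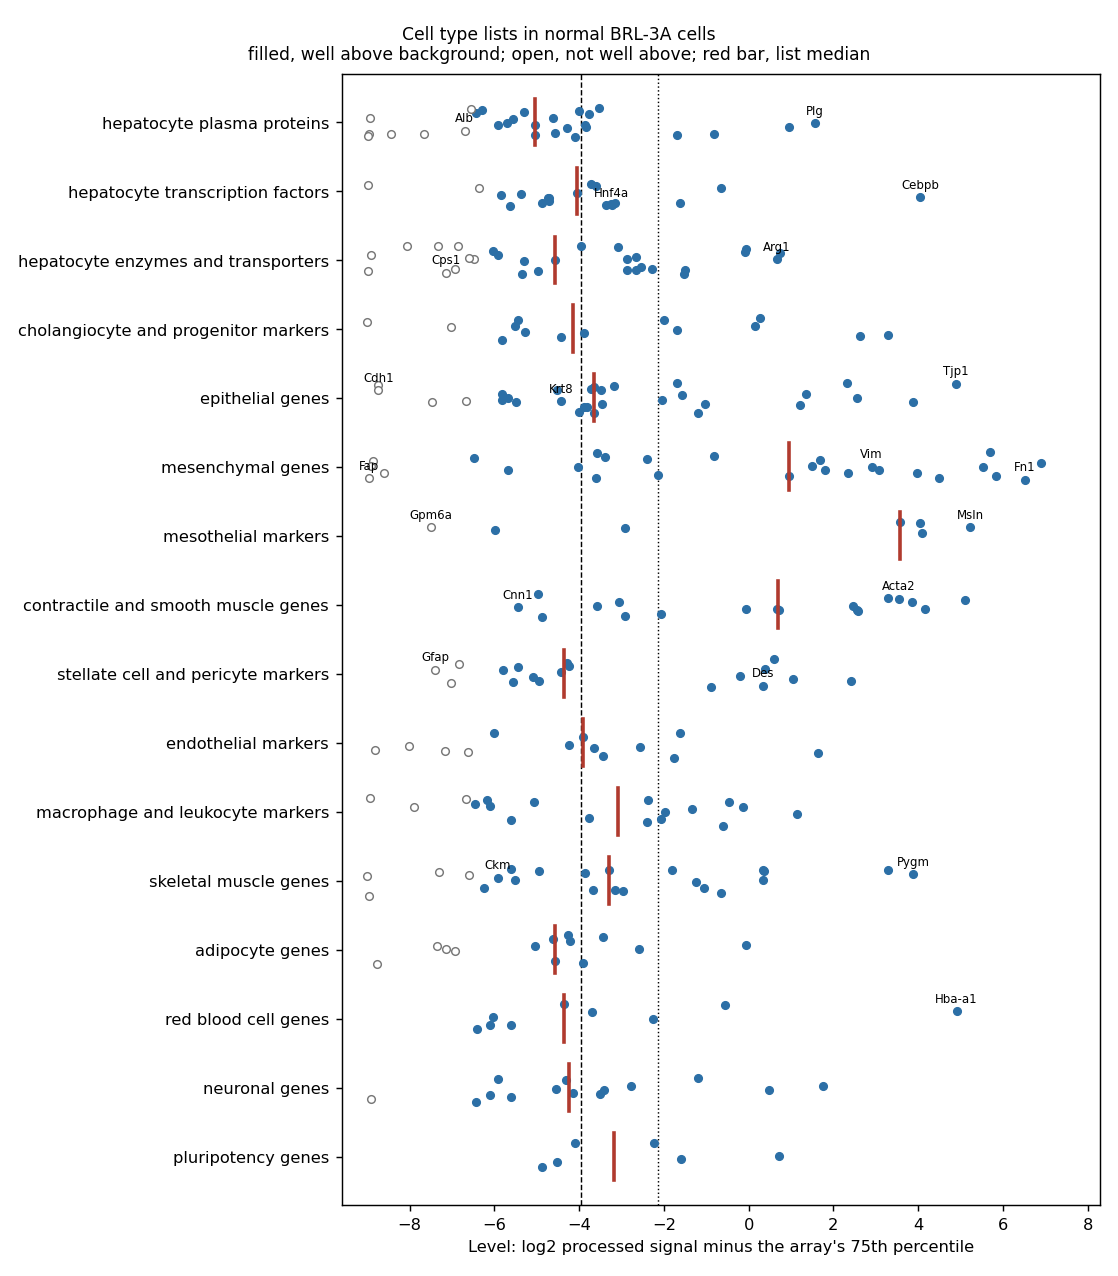
Level of each measured member (x axis, log2 of processed signal minus the array's 75th percentile) of the 16 cell type lists (y axis), 1 point per gene with random vertical offset; filled points are well above background, open points are not, and red bars are list medians. Mesothelial, mesenchymal and contractile medians of 3.56, 0.96 and 0.70 lie right of the dotted line at the median gene (-2.13), and the other 13 lie left of it; the dashed line is the brightest E1A probe.

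The IGF system was read at both ends of the scale, with 7 of 19 members in the top 20%. Of the 19, 16 were well above background, against 88.8% of all genes. Beside Igf2 and Igfbp2, the binding proteins Igfbp4 at 5.29 and Igfbp1 at 5.16 were in the top 20%, as was Igfbp6 at 1.29. Igf1, the second ligand, was at 2.12 with another probe at -1.02. Of the receptors, Igf2r, which takes IGF-II to lysosomes, was at 4.64, Igf1r, which transmits the growth signal, at -1.88 and Insr at -2.57. Igfbp3, the main carrier in adult blood, was at 0.64 and its partner Igfals at -6.22. Igfbp5, Igf2bp1 and Stc2 (an inhibitor of the IGFBP protease) were not well above background. The list's median level was -0.86.

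Imprinted genes, which are expressed from 1 parental copy, had a median level of -0.29, with 6 of 18 in the top 20%. After Igf2 came Gnas (a G protein subunit) at 6.80, Plagl1 (a zinc finger factor) at 6.29, Snrpn at 4.71, Sgce at 3.37 and Impact at 2.87. The other probes of Gnas and Plagl1 read -4.33 and -5.42. H19, the untranslated RNA next to Igf2, was at -1.12, at the 60.3 percentile, and Ndn was not well above background. Igf2 and its neighbour H19 were therefore far apart in rank.

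Collagen chains were led by those of fibrils. Col3a1 was at 7.39, Col1a1 at 6.69 on both probes and Col1a2 at 5.81, and the basement membrane chain Col4a1 at 5.85 with another probe at -1.48. Col18a1 at 1.85 completed the 5 of 15 chains in the top 20%, and Col5a3 followed at 0.82. Col4a4, a chain of specialised basement membranes, was not well above background. The median chain was at -0.28, and 15 further chains of the list were not matched to a probe.

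Of 43 matrix glycoproteins and proteoglycans, 42 were well above background (88.8% of all genes were). The list's median was 0.83, and 20 members were in the top 20%. Eln, Bgn and Fn1 were followed by Fmod (fibromodulin, which binds collagen fibrils) at 5.85, Sparc at 5.69 and Ltbp2 at 4.65. Lama1, the laminin chain of early embryos, was the 1 member not called. The related small proteoglycans were read far apart, with Bgn at 7.22 and Fmod at 5.85 but Dcn (decorin) at -4.26 and Lum (lumican) at -5.94.

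Matrix proteases and inhibitors had a median of -1.30, with 12 of 38 in the top 20%. Serpinh1, the collagen chaperone of the endoplasmic reticulum, was at 6.65. The lysosomal cathepsins Ctsb, Ctsd and Ctsl were at 6.29, 5.39 and 4.73. Plat (tissue plasminogen activator) was at 5.94 and Timp2 at 5.90. Plau, the urokinase counterpart of Plat, was at -4.84. The metalloproteases Mmp3, Mmp7, Mmp8 and Mmp10 were not well above background, whereas the collagenases Mmp13 at -4.29 and Mmp1 at -4.38 were. Not called either was Ctss, the cathepsin of antigen-presenting cells. The plasminogen pair Plg and Plat were thus both over the start of the top 20%.

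Among 54 growth factor ligands, 50 were well above background (88.8% of all genes were) and 37 lay over the brightest E1A probe (69.4%). The list's median was -1.58, and 14 members were in the top 20%. Hdgf was at 4.53 with another probe at -1.56, Pdgfa (a mitogen of mesenchymal cells) at 4.44 with another at 0.10, and Kitlg (stem cell factor) at 3.41 with others down to -8.00. Grn (progranulin) was at 3.41 on its brightest probe and 2.75 on the other, Bmp1, a procollagen protease, at 3.21 and Vegfc, which acts on lymphatic vessels, at 2.93. Lif, the factor for which BRL-conditioned medium has been used on embryonic stem cells, was at -3.64, the 34.0 percentile. Hgf, the hepatocyte growth factor, was at -5.79. Fgf7, Ereg, Angpt1 and Pdgfd were not well above background. Wnt ligands and secreted inhibitors were lower, with a median of -3.75 and 1 of 22 in the top 20%. This was Wnt11 at 1.45, with another probe at -0.11.

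Chemokines and cytokines had a median of -3.05, with 28 of 31 well above background, 21 over the brightest E1A probe and 5 in the top 20%. All 3 shares are near those of all genes or below. The 5 were Mif at 5.28, Lgals3 (galectin 3) at 4.27, Cxcl1 (which attracts neutrophils) at 2.53, Cxcl16 at 2.34 and Ccl2 (which attracts monocytes) at 2.34. Il33, an alarmin, followed at 0.86. Il6 was at -4.03, and Il1b, Ccl3 and Cxcl11 were not well above background.

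Complement and coagulation genes had a median of -4.65, with 4 of 34 in the top 20% and 11 in the lowest 20%. The 4 were Tfpi (which blocks the start of clotting) at 3.53, F3 (tissue factor, which starts it) at 2.93, Clu (clusterin) at 2.62 and C3 at 1.91. Tfpi had another probe at -1.52. C1r was at 0.47 and Procr at 0.18. The vitamin K dependent factors of liver were low, with F10 at -5.11, F7 at -5.52, and F2, F9 and Proc not well above background. C6, Serpind1, Cfd and Tfpi2 were not called either. So tissue factor and, on its brightest probe only, its inhibitor were in the top 20%, and these vitamin K dependent factors were not.

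**Figure D4:**
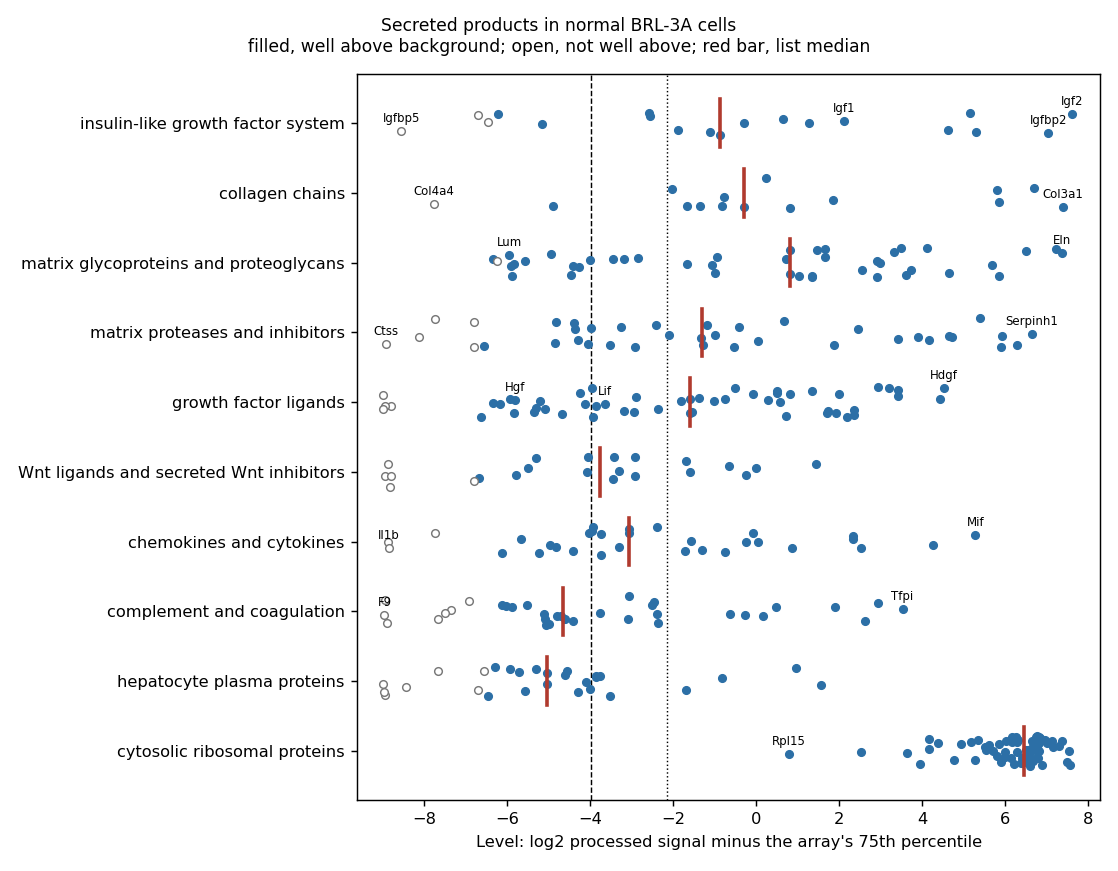
Level of each measured member (x axis, log2 of processed signal minus the array's 75th percentile) of 9 lists of secreted products or their system and of ribosomal proteins for reference (y axis); symbols and lines are as for the cell type lists. Matrix glycoproteins have a median of 0.83 and collagen chains of -0.28, against -5.04 for hepatocyte plasma proteins and 6.46 for ribosomal proteins.

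Growth factor and cytokine receptors lay at the median of all genes (-2.10), with 4 in the top 20%. Well above background were 33 of 34, against 88.8% of all genes. Fgfr2 was at 3.66 with other probes down to -2.47, Tnfrsf1a at 2.42, Bmpr1a at 1.85 and Tgfbr1 at 1.55. Il6st, the shared subunit of the IL-6 family, was at 0.98 and Lifr at -3.42. Pdgfra was the 1 receptor not called.

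Genes of growing cells were bright. Of 30 cell division genes, 30 were well above background (88.8% of all genes were). Their median was 2.01, and 18 were in the top 20%. Cdk1 (the mitotic kinase) was at 4.52, Cdkn1a (the inhibitor p21) at 4.49, Cdc20 at 3.87, Mcm7 at 3.85, Ccna2 at 3.59 and Mcm3 at 3.47. Glycolysis genes had a median of 2.82, with Ldha, Pgk1 and Pgam1 at 6.47, 6.43 and 6.18 and the glucose transporter Slc2a3 at -6.41. Cytoskeleton genes common to most cells had a median of 3.93, with 20 of 25 in the top 20%. All 66 cytosolic ribosomal protein genes were well above background, 65 of them in the top 20%, with a median of 6.46 and Rpl15 lowest at 0.79.

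Factors that mark body position or organ were mostly low. Of 20 Hox genes 0 were in the top 20%, with a median of -3.21; Hoxa7 was highest at -0.45, and Hoxa6 and Hoxd12 were not called. Of 37 organ-restricted transcription factors, 4 were in the top 20%, namely Sox10 (neural crest) at 2.35, Runx1 at 1.51, Pax3 at 1.30 with another probe at -8.34, and Gata4, a factor of heart and of the septum transversum mesenchyme of the fetal liver, at 1.24. Pdx1, Cdx2, Lhx1, Osr1, Foxc2 and Tbx1 were among the 8 not well above background.

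How far a gene's rank depends on its probe was read from genes with several probes. Of 2597 such genes, 1193 had probes more than 3 apart, which is 45.9%, and the quartiles of the range were 1.31 and 4.55. Ribosomal genes such as Rplp0, at 7.54 and 7.09, lay close together, and so did Igfbp2 at 7.05 and 6.04. Gnas, Plagl1, Fn1 and Eln had a bright probe and a dim one. Which transcripts the probes of a gene see was not tested.

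**Figure D5:**
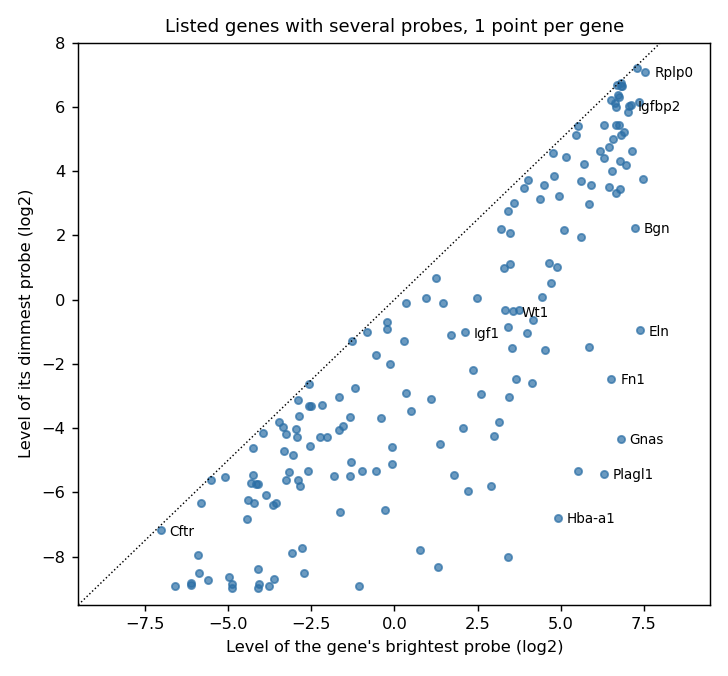
Level of the dimmest probe (y axis, log2) against that of the brightest (x axis, log2) for each listed gene with several probes, with the line of equality dotted. Igfbp2 (7.05 and 6.04) and Rplp0 (7.54 and 7.09) lie near the line, whereas Fn1 (6.51 and -2.46) and Hba-a1 (4.90 and -6.80) lie far below it.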

How the data were processed

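Per the labels, total RNA was labelled with Cy3 from 1 µg. The deposited scanner file gives spot signals in intensity units, which the authors' scanner software had background-subtracted and detrended without scaling between arrays. Agilent Feature Extraction is version 11.0.1.1 per the file headers and 9.1 per the submitters' processing notes. The deposited series table holds the authors' log2 values; over 30336 probes its normal column had a rank correlation of 1.00 with the scanner signals.

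Of 42877 non-control spots, 731 with an outlier flag were left out, and 0 were saturated. Log2 signals were averaged per probe and centred on the 75th percentile. A probe was well above background when at least 0.5 of its spots were. RefSeq accessions named 17994 probes with 1 gene each, and 12342 stayed unnamed. A gene took its brightest probe and was called when any probe was. Precision is limited by the single array. The array's design predates the RefSeq assembly, so positions are given only for RefSeq promoters.

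Lists, members and the line's markers were chosen with earlier results of these data known. Named were the 6 markers, and the 30 brightest named genes without placeholder symbols. Up to 6 highest and up to 6 uncalled members per list were also named, with textbook-defining members. Further members were named after their values were seen. The 33 lists hold 879 symbols, of which 761 were measured. Alternatives were other calls, flagged spots kept, median or dimmest probe, normexp (limma 3.58.1, offset 50, on the median signal since the file has no mean signal), the authors' values and another centring. No test was run, since there was 1 array. Steps were tested on simulated data. Python 3.11.15, pandas 2.3.3, scipy 1.17.1 and R 4.3.3 were used. Protein length by level was not analysed here.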

Additional observations from a re-analysis of the deposited data

Results flagged for a closer look

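Probes without a gene name, which enter no list above, also gave signal: 84.8% of 12342 were well above background, against 87.8% of named probes and 0.65% of negative control spots, and 14 of the 30 brightest probes were among them. The brightest ERCC spike-in control probe read 0.74 and the brightest E1A spike-in control probe -3.96, both over the highest negative control spot at -5.75. Of the ERCC probes, 10 of 12 were well above background.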

How the results depend on the processing

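The share of genes called was 88.8% and ranged from 69.4% (over the brightest E1A probe) to 95.5% (the scanner software's test for a positive and significant signal). With every spot required it was 88.6%, and with every probe required 86.1%. Every one of the 33 list medians moved by less than 22.3 percentile points, the spread between probes of a gene. This held with normexp, the authors' values, another centring, outlier spots kept, and the median or dimmest probe. That limit is wide, and staying under it does not make a median independent of the probe. With the dimmest probe the mesenchymal median went from 78.5 to 56.7, at a level of -2.14. The mesothelial one went from 94.9 to 73.4, at a level of -0.36. Among genes with 1 probe, the line's markers (59.3 with all genes) had a median percentile of 29.9 and mesenchymal genes (78.5) one of 53.9; Igfbp2 leaves the first list there, and the cause in the second was not tested. That setting, the dimmest probe and the E1A line were chosen after seeing the data. Of 17 named genes, Eln at 68.3 and Fn1 at 53.0 moved by more with the dimmest probe. Counts in the top 20% changed by over 1.5 times for 6 lists with the median probe and 8 with the dimmest. Centring on probes well above background shifted every level by -0.50. CpG and TATAAA shares were read in 10 classes as well as 5. No paired analysis was possible because the values come from 1 array and no test. Levels between -7.24 and -6.24 held both called and uncalled genes, which limits what can be read there.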
